A study of Mus musculus with 53 samples.

Results

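The genes described here encode the proteins of the cytosolic ribosome in mouse embryonic stem cells. They were taken by name from 2 expression tables: every name that begins with Rpl or Rps followed by a digit, with Rplp0, Rplp1, Rplp2 and Rpsa, and without the S6 kinases. The rule found 85 genes among the 11647 of the bulk table and 88 among the 23235 of the single-cell table. Of the 85 bulk genes, 41 encode large subunit proteins, 31 small subunit proteins and 3 stalk proteins. These 75 are called subunit genes below. Of the other names, 8 resemble that of a subunit gene (Rpl10l, Rpl22l1, Rpl36al, Rpl39l, Rpl3l, Rpl7l1, Rps27l and Rps4y2). They are called copies below and the gene each resembles in name its parent, whatever their descent. Another is a pseudogene (Rps19-ps3), and 1, Rps19bp1, encodes a nucleolar protein that binds Rps19 and is no subunit. The single-cell table also held values for Rpl11, Rpl17 and the pseudogene Rpl34-ps1, so it had 77 subunit genes, and bulk values of those 3 genes are not analysed here. Fau, whose product is processed to a small subunit protein, falls outside the naming rule and is given with the translation genes.

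The ribosome has a small subunit, which reads the messenger RNA, and a large subunit, which joins amino acids. Ribosomal proteins enter it in fixed proportions, while each is made from its own gene. Most of these mRNAs begin with a run of pyrimidines, the terminal oligopyrimidine tract, through which the mTOR pathway and the binding protein Larp1 control their translation. Mammalian genomes hold many processed pseudogenes of ribosomal protein genes, which are intronless copies of their mRNAs, and short reads can match gene and copy alike.

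RNA was sequenced from 5 populations of R1 cells grown in serum and LIF without feeders, a cytokine medium that keeps embryonic stem cells undifferentiated. The allele set was Tbx3 +/+ (wild type), Tbx3 +/N (1 targeted allele of the T-box transcription factor Tbx3) and Tbx3 N/N (labelled null, genotype Tbx3 -/-). The hairpin set was wild-type cells with a hairpin against luciferase (shLuc) or against Tbx3 (shTbx3). Each population had 1 library and the labels name no clone, so no difference between populations has a replicate check and no p-value is given. The single-cell table held 45 wild-type R1 cells sorted as SSEA1+DAPI- and 1 pool of such cells, and 3078 Tbx3 sites came from a pull-down of biotin-tagged Tbx3 (bfTbx3) in N/N+NBirA cells, which carry the BirA ligase. The targeted stretch of Tbx3 is not named in the labels. Tbx3 itself stood at 44.4, 22.5 and 15.1 FPKM (fragments per kilobase of transcript, scaled to the library's fragments) in +/+, +/N and N/N, and at 13.8 and 5.09 FPKM in shLuc and shTbx3. All 10 pluripotent stem cell markers looked at were at 1 FPKM or more in each bulk library. Primitive endoderm markers (7 genes) summed to 73.6 FPKM in +/+ and to 9.71 to 22.3 FPKM in the others, fibroblast markers (4 measured of 7) to between 35.9 and 68.6 FPKM in the allele set, against 6.06 to 7.45 FPKM in shLuc and shTbx3, and B cell and antigen-presenting cell markers (5 measured of 7) to 80.5 FPKM in shLuc and 6.86 to 9.65 FPKM elsewhere. Their part in the differences below was not tested, and in bulk RNA fewer cells of a type and less RNA per cell cannot be told apart. Genes of small RNAs took up 19.6% to 22.7% of the FPKM total in the 3 allele libraries, against 5.42% to 7.24% in shLuc and shTbx3. How deeply each library was read is not stated.

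The start of a ribosomal protein mRNA is what this gene family is best known for, so 40-base windows over the annotated start (20 bases before it and 20 from it on, gene strand) are shown for the 5 most abundant subunit genes with both a window and a tract of at least 7 bases, for Rps6, the S6 kinase substrate, and for Rpl39 with its copy Rpl39l. Capitals mark the longest run of C and T that reaches within 10 bases of the start. The run ends before the annotated start in Rpl4 and Rpl39l and begins after it in Rps26 and Rpl39. A marked run is therefore not shown to be the beginning of the mRNA. The windows are from RefSeq, build GRCm38.p6.
Rps21, chr2:180257359-180257398, plus strand: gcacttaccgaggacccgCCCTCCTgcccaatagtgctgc
Rpl4, chr9:64173367-64173406, plus strand: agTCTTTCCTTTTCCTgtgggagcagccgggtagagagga
Rps9, chr7:3704021-3704060, plus strand: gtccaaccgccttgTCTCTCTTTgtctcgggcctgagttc
Rps26, chr10:128626487-128626526, minus strand: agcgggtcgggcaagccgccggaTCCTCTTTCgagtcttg
Rplp2, chr7:141447631-141447670, plus strand: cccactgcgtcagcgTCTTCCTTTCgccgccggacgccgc
Rps6, chr4:86857348-86857387, minus strand: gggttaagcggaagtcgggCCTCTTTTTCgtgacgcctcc
Rpl39, chrX:37085203-37085242, minus strand: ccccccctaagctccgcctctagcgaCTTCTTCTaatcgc
Rpl39l, chr16:10170208-10170247, plus strand: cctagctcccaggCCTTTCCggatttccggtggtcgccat
Runs were counted on either side of the annotated start or over it. A run of 7 or more C or T was found in 28 of the 55 subunit genes with a window (50.9%). The share was 18.3% among 8141 other genes of the bulk table and 19.5% among all 27025 genes of the sequence table.

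In every bulk library the subunit genes spanned a wide range of levels although their proteins are made in fixed proportions (plot of levels by library). In +/+ the lowest was Rpl28 at 1.10 FPKM, and the median was 41.3 FPKM. In +/+, 25 of the 75 were under 10 FPKM and 27 at 100 FPKM or more, and the 10 most abundant held 67.4% of the summed subunit FPKM. Rpl8, an abundant protein of the peptidyl transferase region, was at 2396, 2465, 2942, 2659 and 3201 FPKM in +/+, +/N, N/N, shLuc and shTbx3. Its 5 libraries lay within 1.5-fold of each other. At the other end, Rps6 was at 1.12, 1.07, 1.05, 1.99 and 1.77 FPKM and Rpl3, which reaches toward the peptidyl transferase centre, at 1.78, 2.25, 2.49, 2.51 and 2.15 FPKM. The stalk recruits elongation factors to the ribosome. Its proteins are Rplp0, at 357, 370, 410, 390 and 554 FPKM, Rplp1, at 1646, 2096, 2331, 3632 and 5011 FPKM, and Rplp2, at 814, 891, 1108, 379 and 505 FPKM. Rplp1 was highest in the hairpin set and Rplp2 in the allele set.

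**Figure D1:**
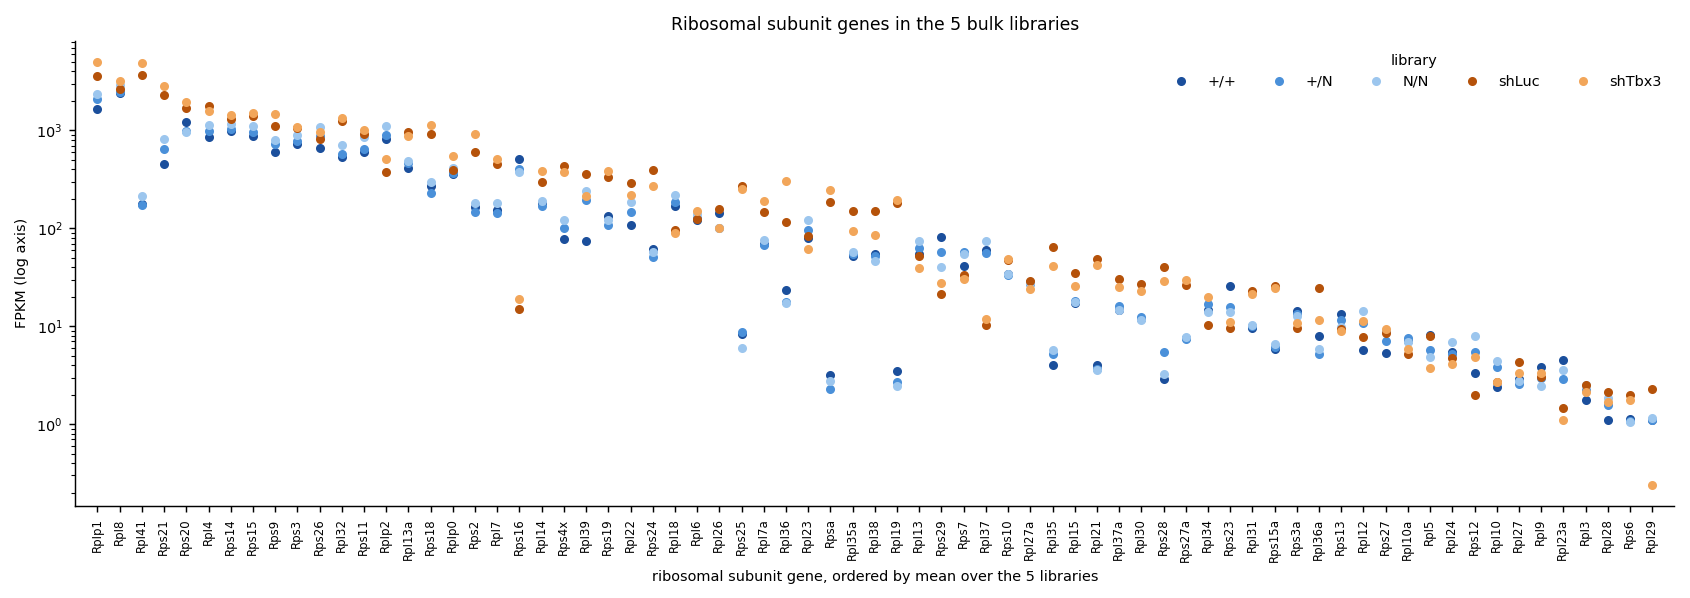
FPKM (log axis) of 71 of the 75 subunit genes in the 5 bulk libraries, 1 point a library, ordered by their mean. Levels in 1 library run over more than 3 orders of magnitude, and for Rpsa, Rpl19 and Rps16 the blue points (allele set) and the orange points (hairpin set) lie far apart.

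Summed over the subunit genes, the levels were 18981, 20238 and 23663 FPKM in the order +/+, +/N and N/N, or 5.53%, 6.15% and 6.69% of all FPKM of the library. In shLuc and shTbx3 it was 35333 and 41412 FPKM, or 10.3% and 10.6%. With the small RNA genes left out of the total, the shares were 6.88%, 7.96%, 8.46%, 11.1% and 11.2%. The order of the 5 libraries was the same on either base, and the gap between the sets was narrower without the small RNA genes.

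Levels were lower, on the whole, for subunit genes with more sequence that is repeated in the genome. For 1 transcript of each gene, every word of 26 and of 100 bases, the read lengths named in the labels, was searched for exact matches in the mm9 genome outside the gene itself. Among the 74 subunit genes with an annotated transcript, the median share of 26-base words with a match elsewhere was 80.6%, against 0.40% for 11008 other genes of the bulk table. For 100-base words the medians were 47.8% and 0.0%. The 6 subunit genes with 90% or more of their 100-base words elsewhere were Rps27 (99.6%), Rps12 (97.9%), Rps6 (94.4%), Rpl23a (93.9%), Rpl10 (93.9%) and Rpl36a (91.7%). Their levels ran from 1.12 to 7.90 FPKM in +/+, with a median of 3.93 FPKM. The 38 subunit genes with under 50% had a median of 94.5 FPKM in +/+. Across the 74 genes Spearman's rho between the 100-base share and FPKM was -0.61, -0.61, -0.62, -0.67 and -0.66 in the 5 libraries. For the 26-base share it was weaker, at -0.42, -0.41, -0.42, -0.39 and -0.37. Rpl24, a large subunit protein, did not follow the relation: 0.32% of its 26-base words and none of its 100-base words had a match elsewhere, and it read 4.12 to 6.86 FPKM. The genes share each library and are not independent, so rho is a description. Only exact matches were searched, and the labels do not say how reads with several matches were divided. A low FPKM of such a gene is therefore a low reading, not shown to be a low mRNA level.

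The 2 control populations, shLuc and +/+, differed by 8-fold or more at a larger share of ribosomal protein genes than of all genes. Rpsa, also known as the laminin receptor, was at 3.22, 2.32 and 2.78 FPKM in +/+, +/N and N/N and at 185 and 245 FPKM in shLuc and shTbx3, and Rpl19 at 3.46, 2.72, 2.47, 182 and 195 FPKM. Rps16 was the reverse, at 511, 403, 378, 14.9 and 19.1 FPKM. In these 3 genes the allele set and the hairpin set did not overlap. They were picked from the genes at least 8-fold apart that follow, and the share of all genes without overlap was not counted. In all, 8 subunit genes were at least 8-fold higher in shLuc than in +/+ on the log2(FPKM + 1) scale (among them Rpsa, Rpl19, Rps25, Rpl41, Rpl35, Rps28 and Rpl21) and 1 at least 8-fold lower (Rps16). That is 12% of the 75, beside 0.515% of the 11453 genes that are not small RNAs. At 1.5-fold, 40 were higher (background 16.3% of all genes) and 7 lower (background 14.9%). The median log2 difference of the subunit genes was 0.64 and that of all genes 0.01. Of the 9 genes at least 8-fold apart, the 8 with an annotated transcript had 31.9% (Rpl35) to 79.5% (Rps16) of 100-base words elsewhere. The labels do not say which library was read at 26 and which at 100 bases, so cell population, read length and library batch cannot be told apart in this comparison.

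**Figure D2:**
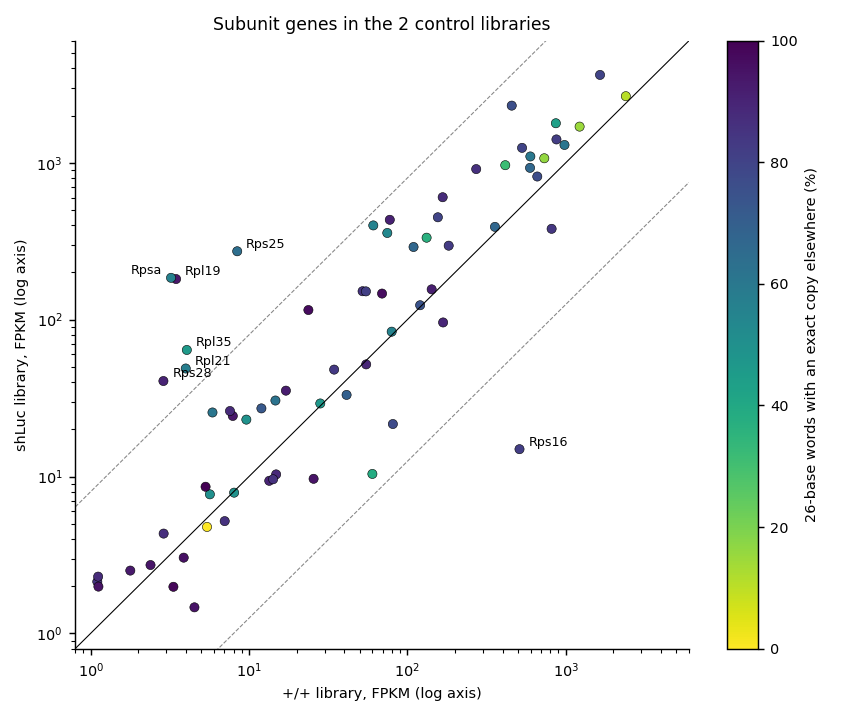
FPKM of subunit genes in the +/+ library (x, log axis) and the shLuc library (y, log axis), 1 point a gene, coloured by the percent of its 26-base words with an exact copy elsewhere in the genome. The solid line marks equal values and the dashed lines 8-fold differences in FPKM. Rpsa (3.22 and 185 FPKM) and Rps16 (511 and 14.9 FPKM) lie at opposite sides. The plot draws 70 genes, and Rpl41, which has no annotated transcript, is not among them.

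Within the allele set the question was what goes with the loss of intact Tbx3. In N/N, 48 of the 75 subunit genes read above +/+ and 27 below, with a median log2 difference of 0.14 beside -0.03 for all 11478 genes past the filter of 1 FPKM in either library, which all 75 passed. At least 1.5-fold higher were 11 (background 5.45%) and at least 1.5-fold lower 3 (background 6.47%). By level, the medians of the subunit genes differed. Of the 33 with a mean of 100 FPKM or more over the 5 libraries, 27 were above +/+, with a median of 0.28. All 473 genes at that level that are not small RNAs, these 33 among them, had a median of -0.00, with 49.9% above +/+. Of the other 42 subunit genes, 21 were above +/+, with a median of -0.00. The abundant group held 6 of the 11 genes at least 1.5-fold higher and none of the 3 lower. The medians were 0.13 for the large subunit, 0.13 for the small subunit and 0.44 for the stalk. All 3 stalk genes read higher, each by under 1.5-fold.

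The largest positive difference was that of Rpl39, a short large subunit protein at the peptide exit tunnel. Its levels were 74.7, 197 and 243 FPKM in the order +/+, +/N and N/N, a log2 difference of 1.69 for N/N against +/+. The +/+ library had the lowest Rpl39 value of all 5. Next came Rpl12, which sits at the base of the stalk, at 5.66, 10.9 and 14.4 FPKM (1.21), and Rps12, a protein of the small subunit head, at 3.33, 5.45 and 7.92 FPKM (1.04). Rps21 was at 456, 641 and 811 FPKM (0.83), and Rpl22, which cells can replace with its copy Rpl22l1, at 109, 146 and 185 FPKM (0.76). In these 5 genes +/N stood between the other libraries. Where at least 1 of the libraries reached 5 FPKM, the 5 lowest differences were those of Rps29 (81.0, 58.0 and 40.6 FPKM, -0.98), Rps23 of the decoding centre (25.6, 15.6 and 13.9 FPKM, -0.84), Rpl5, which binds 5S ribosomal RNA (8.06, 5.79 and 4.86 FPKM, -0.63), Rpl26 (142, 102 and 100.0 FPKM, -0.51) and Rpl36 (23.7, 17.7 and 17.1 FPKM, -0.45). They too had +/N between +/+ and N/N. Genes picked for a large difference between +/+ and N/N tend to have +/N between them. How many of all genes have this order was not counted.

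With 1 targeted allele the differences were smaller. In +/N against +/+ the median over the subunit genes was 0.05 beside -0.10 for all genes, with 41 genes above +/+ and 34 below. That is 54.7% above +/+, beside 35.0% of all genes. At least 1.5-fold higher were 3 (background 2.44%), namely Rpl39 (1.38), Rpl12 (0.83) and Rps28 (0.74), and 1, Rps23, was at least 1.5-fold lower (-0.68, background 4.91%). Genes at 5 FPKM or more had a median log2 difference of -0.12 between these libraries. With that shift set to 0, the subunit median was 0.17. Between N/N and +/N, 53 subunit genes were above and 22 below 0, with a median of 0.15 beside 0.07 for all genes. That is 70.7% of the subunit genes above 0, beside 68.1% of all genes, and with the shift of all genes set to 0 the subunit median was 0.056. None was at least 1.5-fold higher (background 0.977%), and 1, Rps28, was at least 1.5-fold lower (-0.60, background 0.801%). These 3 comparisons share libraries, and their values are given side by side only.

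**Figure D3:**
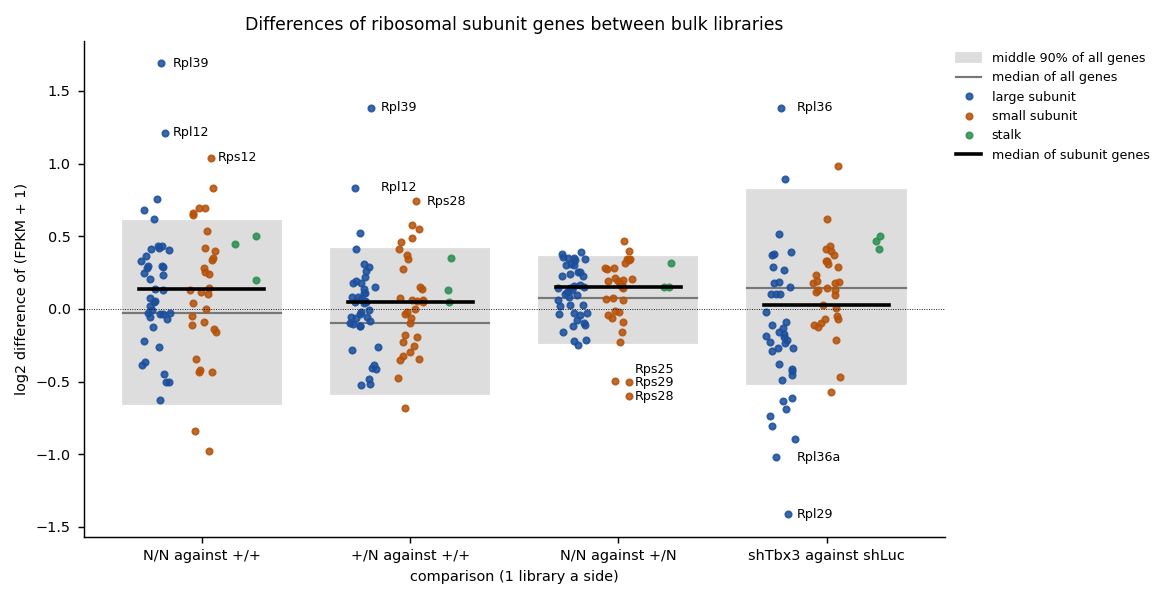
Log2 difference of (FPKM + 1) for the 75 subunit genes in 4 comparisons, 1 library a side, by part of the ribosome. Grey boxes hold the middle 90% of all genes and grey lines their median. Black lines are the subunit medians. Rpl39 stands highest in N/N (1.69) and +/N (1.38), and in the hairpin comparison most large subunit genes lie below 0.

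The hairpin against Tbx3 gave another pattern. In shTbx3 against shLuc the median of the subunit genes was 0.02 beside 0.14 for all genes. At least 1.5-fold higher were 4 (background 12.7%): Rpl36, a large subunit protein (115 FPKM in shLuc, 303 in shTbx3), Rpl34 (10.3 and 20.1), Rps12 (1.98 and 4.89) and Rps2, a protein of the mRNA entry (603 and 927). At least 1.5-fold lower were 8 (background 3.73%), all of the large subunit. They included Rpl36a (24.3 and 11.5 FPKM), Rpl5 (7.89 and 3.79), Rpl38, known for its part in the translation of Hox mRNAs (151 and 86.4), Rpl39 (357 and 214) and Rpl35a (152 and 94.0). The lowest, Rpl29 (2.30 and 0.241 FPKM), was under 5 FPKM in both libraries. For the large subunit 14 of 41 genes were above 0, with a median of -0.18, and for the small subunit 22 of 31, with a median of 0.14. Among all genes 64.5% were above 0, with a median of 0.14, so the small subunit was close to all genes. All 3 stalk genes were above 0, with a median of 0.46. Genes at 5 FPKM or more differed by a median of 0.16 between these libraries, and with that set to 0 the medians were -0.34, -0.02 and 0.31, so the sign of the small subunit depends on the scaling and the order of the 3 groups does not. By level, the 33 subunit genes with a mean of 100 FPKM or more had a median of 0.19, with 24 above 0. The other 42 had a median of -0.12, with 15 above 0. All 471 genes at 100 FPKM or more that are not small RNAs had a median of 0.25. Whether level plays a part in the difference between large and small subunit was not tested. Rpl39, the member with the largest difference in N/N, was lower in shTbx3 (-0.73), and Rps12 was higher in both comparisons (1.04 and 0.98). Rps12 was under 5 FPKM in shLuc and in shTbx3, and most of its 100-base words have a match elsewhere. Its readings are therefore not shown to be mRNA levels.

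Other genes of translation and ribosome production were read from 3 lists. Among all genes 46.0% were above +/+ in N/N (median -0.03, with 5.45% at least 1.5-fold higher and 6.47% lower). Above shLuc in shTbx3 were 64.5% (median 0.14, with 12.7% at least 1.5-fold higher and 3.73% lower). Of 19 genes for translation factors and similar mRNAs, most of them known for an oligopyrimidine start, 17 were above +/+ in N/N (median 0.35) and none was 1.5-fold apart in either direction. The elongation factor Eef2 was at 1422, 1685 and 2128 FPKM in +/+, +/N and N/N and at 1106 and 1465 FPKM in shLuc and shTbx3, and the intermediate filament gene Vim at 130, 218, 188, 44.9 and 126 FPKM. Fau was at 23.7, 19.1, 20.7, 29.9 and 30.3 FPKM, below +/+ in N/N. In shTbx3 against shLuc 13 of the 19 were above 0 (median 0.14, -0.02 with the shift of all genes set to 0, and -0.08 with small RNA genes left out of the scaling), 1 of them, Vim, 1.5-fold higher.

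Of 40 ribosome biogenesis factors, 10 were above +/+ in N/N (median -0.23), none 1.5-fold higher and 1 lower. That was Ubtf, which loads RNA polymerase I on ribosomal DNA, at 59.3, 37.7, 37.7, 51.1 and 60.5 FPKM. In shTbx3 against shLuc 33 of the 40 were above 0 (median 0.24, 0.08 with the shift set to 0, and 0.03 with small RNA genes left out of the scaling) and 8 were 1.5-fold higher (1 with the shift set to 0), among them Bop1, a factor of large subunit maturation (51.5 and 95.6 FPKM). Of 21 regulators of ribosomal protein translation and ribosome production, 8 were above +/+ in N/N (median -0.07) and 12 above shLuc in shTbx3 (median 0.19, 0.04 with the shift set to 0, and -0.02 with small RNA genes left out of the scaling). Myc, a factor that raises ribosome production, was at 9.35, 5.74, 3.99, 5.21 and 14.0 FPKM, with log2 differences of -1.05 in N/N against +/+ and 1.27 in shTbx3 against shLuc. Larp1 was at 45.3, 57.2, 65.1, 41.5 and 64.2 FPKM, higher in N/N than in +/+ (0.51) and in shTbx3 than in shLuc.

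Several copies read higher than the genes they derive from (plot of copies beside parents). Rps27l was at 230, 215, 217, 777 and 669 FPKM, while Rps27 was at 5.32, 7.02, 8.97, 8.61 and 9.42 FPKM. In single cells Rps27l was at 1 FPKM or more in all 45 and Rps27 in 3. The coding sequences of the pair are both 255 bases long and differ at 61 (76.1% identical), and the longest stretch they share is 11 bases, shorter than either read length. They are shown, with differing bases in capitals, because the pair is the clearest case of a copy that reads high beside a parent that reads low. No 100-base word of Rps27l has a match elsewhere, against 99.6% for Rps27. All coding sequences are from GENCODE vM1 on the mm9 genome, and the coordinates are those of the genes.
Rps27, chr3:90016593-90017573, minus strand: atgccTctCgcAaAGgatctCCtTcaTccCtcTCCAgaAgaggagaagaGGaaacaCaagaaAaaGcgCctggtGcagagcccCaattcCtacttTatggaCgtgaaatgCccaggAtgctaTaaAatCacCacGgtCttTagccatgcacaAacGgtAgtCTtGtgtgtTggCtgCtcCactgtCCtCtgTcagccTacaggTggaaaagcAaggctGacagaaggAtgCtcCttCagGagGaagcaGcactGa
Rps27l, chr9:66793893-66797323, plus strand: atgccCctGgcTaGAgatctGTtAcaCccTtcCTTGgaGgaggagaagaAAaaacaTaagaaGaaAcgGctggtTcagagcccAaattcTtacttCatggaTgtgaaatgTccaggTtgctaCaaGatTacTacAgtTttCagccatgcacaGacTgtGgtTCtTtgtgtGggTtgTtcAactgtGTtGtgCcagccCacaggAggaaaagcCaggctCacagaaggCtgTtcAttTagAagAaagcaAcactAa

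Rpl10l, an intronless copy known from spermatogenesis, was at 65.2, 44.5, 35.3, 75.9 and 62.2 FPKM and its parent Rpl10, a protein added late to the large subunit, at 2.39, 3.86, 4.43, 2.73 and 2.68 FPKM. Rpl10l was lower in N/N than in +/+ (-0.87). Rpl36al was at 60.2, 49.9, 63.1, 256 and 255 FPKM beside 7.90, 5.21, 5.81, 24.3 and 11.5 FPKM of Rpl36a. Rps4y2, a copy with 1 exon in the annotation, was at 511, 448, 486, 426 and 628 FPKM beside 77.5, 101, 122, 433 and 373 FPKM of the X-linked Rps4x. In the other pairs the parent read higher. Rpl22l1 stood at 0.203, 0.234, 0.188, 0.398 and 0.397 of Rpl22, and Rpl7l1 at 0.270, 0.251, 0.189, 0.177 and 0.178 of Rpl7. The coding sequences of Rpl7 and Rpl7l1 are 46.9% identical, the lowest of these pairs. Rpl3l, a copy of striated muscle, was at 1.17 to 2.35 FPKM in the 5 libraries and was listed at 0 in all 45 cells. The pseudogene Rps19-ps3 was at 1.05 to 2.89 FPKM, and Rps19bp1 at 33.3 to 53.1 FPKM.

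Rpl39l, a copy of Rpl39 known from testis, did not keep a steady ratio to its parent in the bulk libraries. Its levels were 21.7, 23.7 and 16.3 FPKM in the order +/+, +/N and N/N, and 55.6 and 13.2 FPKM in shLuc and shTbx3. The ratio of copy to parent was 0.290, 0.120 and 0.0669 in the allele set and 0.156 and 0.0615 in the hairpin set, lowest in N/N and in shTbx3 of the respective sets. Between shTbx3 and shLuc Rpl39l differed by -1.997 on the log2(FPKM + 1) scale, and -2.16 with the shift of all genes set to 0. The coding sequences of Rpl39 and Rpl39l are of 156 bases each with 23 differences (85.3% identical), and the longest shared stretch is 38 bases. That is longer than 26 and shorter than 100, yet only 4.19% of the 26-base words and none of the 100-base words of the Rpl39l transcript had a match elsewhere. The pair is shown with differing bases in capitals.
Rpl39, chrX:34622515-34625397, minus strand: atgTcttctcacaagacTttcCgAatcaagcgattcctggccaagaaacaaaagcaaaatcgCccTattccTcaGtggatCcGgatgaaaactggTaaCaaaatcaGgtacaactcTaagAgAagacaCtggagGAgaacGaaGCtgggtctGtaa
Rpl39l, chr16:10170319-10175004, plus strand: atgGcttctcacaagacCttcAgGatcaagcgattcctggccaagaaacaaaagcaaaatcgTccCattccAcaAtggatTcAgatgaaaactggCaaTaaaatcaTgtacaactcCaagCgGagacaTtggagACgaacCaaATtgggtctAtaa

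**Figure D4:**
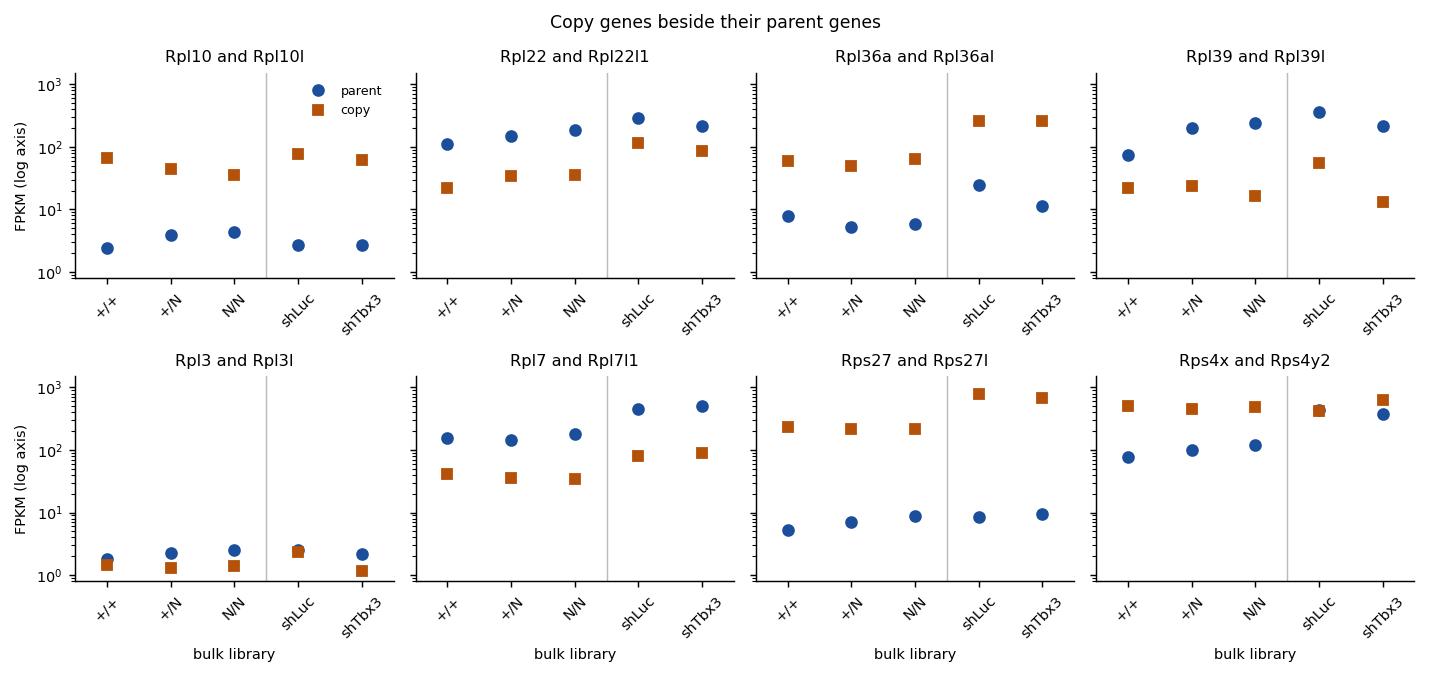
FPKM (log axis) of 8 copy genes (squares) and their parent genes (circles) in the 5 bulk libraries, the grey line dividing the allele set from the hairpin set. The copies Rpl10l, Rpl36al and Rps27l lie above their parents in every library, and Rps4y2 in all but shLuc.

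In single cells, ribosomal protein genes were among the most widely detected genes. At 1 FPKM or more, 38 of the 77 subunit genes were present in all 45 cells, beside 1.75% of the 11678 genes that reached 1 FPKM in the pool. Among genes at 100 FPKM or more in the pool it was 33 of 40 subunit genes, beside 13.2% of all such genes. Among those in all cells with high medians were Rpl41, which encodes a very short peptide (1797 FPKM in the lowest cell, 4237 in the median cell and 11418 in the highest), Rps14 (977, 2251 and 4805 FPKM), Rpl4 (151, 1364 and 4628 FPKM) and Rpl32 (237, 1245 and 3391 FPKM). For 14 subunit genes under 50% of the cells reached 1 FPKM. Rpl29 was in none (exact Clopper-Pearson 95% interval 0 to 7.87% of cells), Rpl17 in 1, Rps27 in 3, Rpl11 in 6 and Rps6 in 7. Whether a gene listed at 0 in a cell was without mRNA there was not tested. The number of cells a subunit gene was found in was lower where its share of 100-base words elsewhere was higher (Spearman's rho -0.61 over 74 genes, a description). The 6 genes with 90% or more of such words were in a median of 9.5 cells, and the others in a median of 45 cells.

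**Figure D5:**
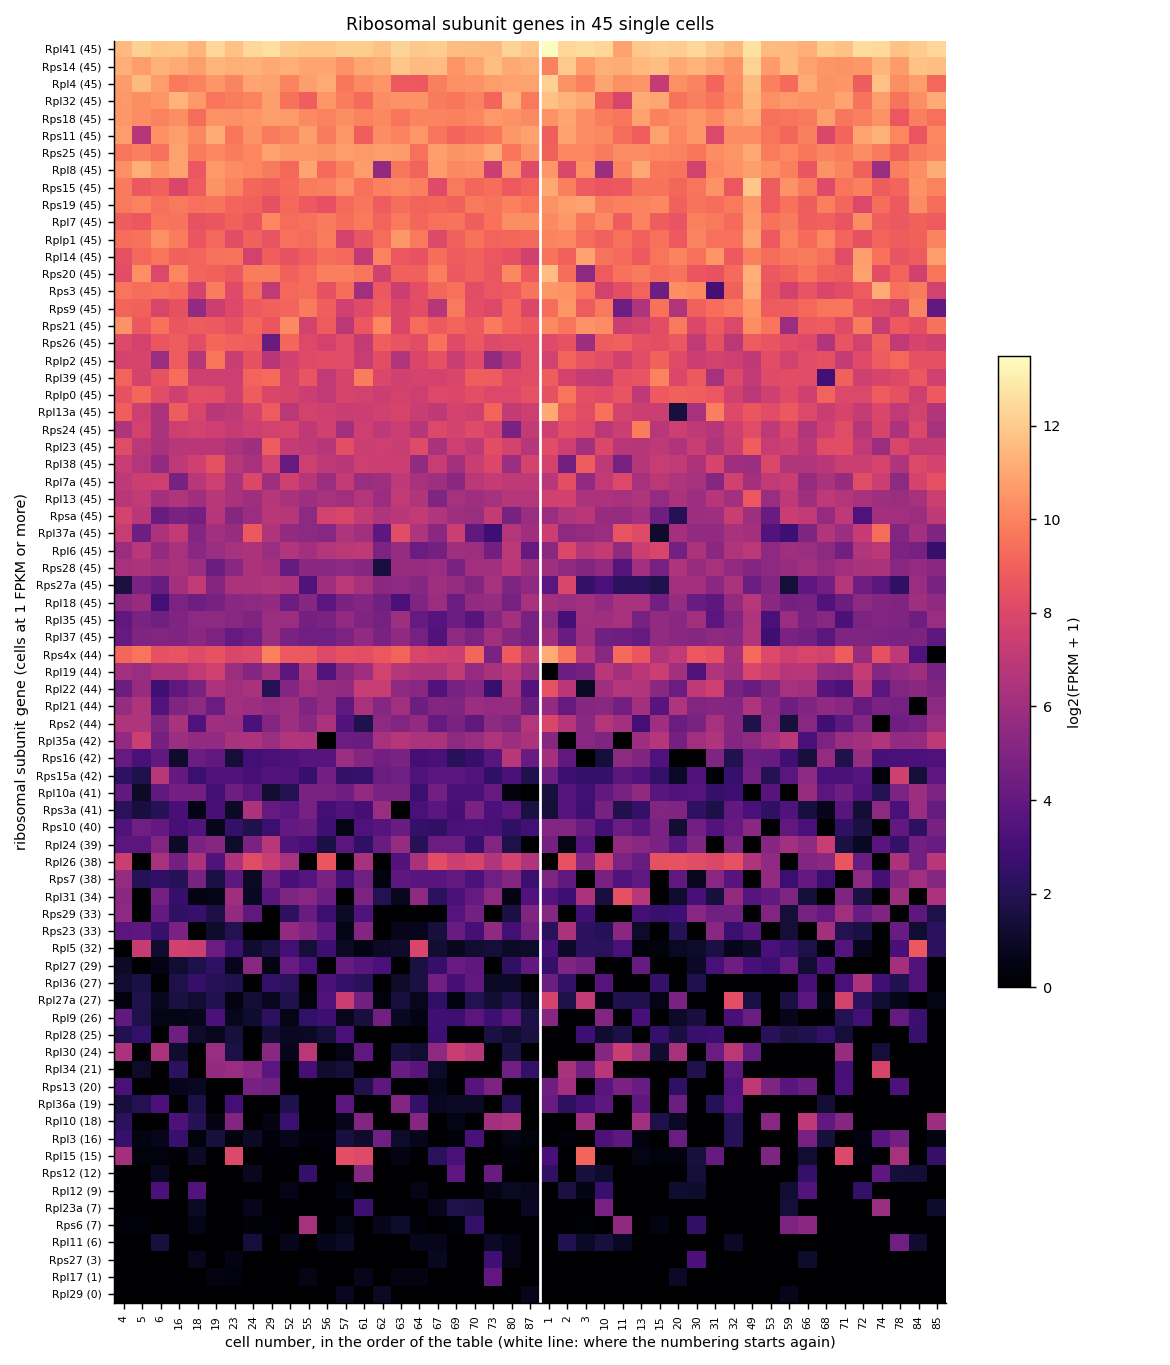
Log2(FPKM + 1) of 73 of the 77 subunit genes (rows, with the number of cells at 1 FPKM or more) in 45 single cells (columns). The upper 35 rows are at 1 FPKM or more in every cell, Rps27, Rpl17 and Rpl29 at the foot in 3, 1 and 0 cells, and rows such as Rpl15 are high in a few cells only.

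The spread from cell to cell differed widely between subunit genes. The coefficient of variation (SD over mean) of FPKM was lowest for Rps18, at 0.316, with 408 FPKM in the lowest cell, 1152 in the median cell and 2186 in the highest. Rps14 (0.336), Rps25 (0.341) and Rpl41 (0.356) followed. Of 166 other genes found in all cells 7 were below Rps18, and their median was 0.648 beside 0.565 for the subunit genes in all cells. The highest coefficients were those of genes in few cells, Rpl17 (5.40), Rpl23a (4.15), Rps27 (3.82), Rpl11 (3.71) and Rpl29 (3.30). The cell values are FPKM scaled across libraries, so these coefficients hold technical and biological spread together. Among the copies, Rps27l ranged from 100.3 to 3850 FPKM with a median of 925 and Rpl36al from 1.25 to 1005 FPKM with a median of 258, both in all 45 cells, whereas Rpl36a was in 19. Rpl39 was in all 45 cells, from 6.89 to 1015 FPKM with a median of 269. Rpl39l was in 23, from 0 to 661 FPKM. Rpl10l was in 24 cells and Rpl10 in 18, and 12 cells had both.

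The subunit genes together held 2.86% to 9.81% of a cell's summed FPKM, with a median of 4.79%. Cells with more detected genes had a lower share (Spearman's rho -0.57 over 45 cells, a description). The columns of the table form runs of 23 and 22 cells, each in rising cell number, and the labels do not say whether these are batches. The median number of detected genes was 2446 in the first run and 1973 in the last, the median subunit share 4.76% and 4.85%, and rho within the runs -0.27 and -0.71. From cell to cell the subunit genes hardly varied together. Over the 48 genes in at least 90% of cells the median Spearman's rho of the 1128 pairs was 0.03 (quartiles -0.07 and 0.15), beside -0.01 between these genes and 410 others found as widely. Within the first and last run it was 0.02 and 0.05. Rpl41 had the highest median correlation with the other members, at 0.14.

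Against the pool, which was a library of many cells, the mean over single cells was lower for most subunit genes. Of 75 at 1 FPKM or more in the pool, 56 had a lower mean over cells and 19 a higher one, with a median log2 difference of -0.71 beside -1.23 for all genes. At least 2-fold lower were 24 (background 57.2%) and at least 2-fold higher 6 (background 11.1%). Genes entered these counts by their pool value alone, which favours genes that read high in the pool. The part of this choice in the differences was not tested, for the subunit genes or for all genes. The pool held 8.68% of its FPKM in subunit genes, above 4.79% of the median cell. Rps25 was at 316 FPKM in the pool and 1096 FPKM in the median cell (log2 of mean over cells against pool 1.92), and Rplp1 at 3753 and 646 FPKM (-2.42). Each table has its own scaling, so no level is compared between bulk libraries and cells.

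Tbx3 sites were not more frequent at subunit genes than at genes in general. Of the 74 subunit genes placed on the annotation 3 had a site within 1 kb of the gene start (4.05%), beside 5.15% of 11431 placed genes. They were Rpl22, with a site of 544 bases at chr4:151699584-151700127 (score 67.4, the deposited peak score), Rpl27, at chr11:101303356-101303837 (54.7) and Rpl3, at chr15:79913577-79914048 (98.0). Each of the 3 sites covered the annotated start (mm9 coordinates). Rpl22 read 109, 146 and 185 FPKM in +/+, +/N and N/N and 291 and 218 FPKM in shLuc and shTbx3, so it was above its control in one setting and below it in the other, and Rpl27 read 2.58 to 4.33 FPKM in the 5 libraries. Within 20 kb there were 9 (12.2%) beside 14.9% of all genes. The strongest of these sites had a score of 418, rank 43 of 3078, and lay 5048 bases upstream of Rps26, a small subunit protein of the mRNA exit, which was at 661, 882, 1072, 818 and 961 FPKM. The T-box letters GGTGTGA, searched on both strands, were in none of the 200-base centres of these 4 sites, and in 7.67% of all site centres. No promoter window of the 55 subunit genes held them either, beside 3.29% of other bulk genes, which says only that these letters are not in these windows.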

How the data were processed

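TruSeq libraries of total RNA were read at 26 or 100 bases for the bulk populations, and single cells were captured on a Fluidigm C1 and prepared with Nextera XT, per the labels' protocols. The bulk FPKM values were deposited by the authors, with TopHat, Cufflinks and Cuffdiff named in the submitters' processing notes. The single-cell FPKM values were also deposited by the authors, with TopHat and Cuffnorm named there. The deposited peak score of the Tbx3 sites has no stated scale, and Bowtie 1.0 and HOMER are named for it per the submitters' processing notes. The build is mm9. The tagless control pull-down was not analysed here.

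From these, log2((a + 1)/(b + 1)) was computed per gene (pseudocount of 1 FPKM) where either library reached 1 FPKM. A difference was counted at 1.5-fold. With 1 library a population no test was run, and depth is unknown. Alternatives were pseudocounts of 0.1 and 5, a fold of 2, no filter, and other scalings. Detection in cells was at 1 FPKM. Clopper-Pearson intervals (95%) cover counting error only. Exact matches of 26- and 100-base words used 1 GENCODE vM1 transcript a gene, and programs were tested on simulated data. Python 3.11.15, numpy 2.4.6, pandas 2.3.3, scipy 1.17.1, numba 0.67.0, matplotlib 3.10.9 and Biopython 1.88 were used.

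Members and lists were chosen with earlier results of these data known. Named throughout were the stalk genes, Rpsa, copies with parents, the 5 highest and 5 lowest subunit genes at 5 FPKM or more in a comparison, the extremes over cells, up to 4 genes of each list and genes with a Tbx3 site within 1 kb. Rpl8, Rpl24, Rpl28, Rpl29 and Rps26, and genes listed for their copy share, were named after their values were seen. Some genes that this rule takes are not reported or drawn here, and they remain in the counts and medians.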

Additional observations from a re-analysis of the deposited data

Results flagged for a closer look

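Rpl39 differed in opposite directions, by 1.5-fold or more, in N/N against +/+ and in shTbx3 against shLuc. The 2 comparisons do not cover the same range of Tbx3. It read 44.4 and 15.1 FPKM in +/+ and N/N, and 13.8 and 5.09 FPKM in shLuc and shTbx3. The log2 difference of Rpl39, which read lowest in +/+, was 1.69 for N/N against +/+ and -0.73 for shTbx3 against shLuc. Each rests on 1 library a side, and the difference between them was not tested.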

How the results depend on the processing

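No paired analysis was possible because each population had 1 library. The shTbx3 median of 0.02 was -0.13 with the shift of all genes set to 0 and -0.18 with small RNA genes left out of the scaling. Under the same scalings the +/N median of 0.05 was 0.17 and 0.16, and the medians without small RNA genes were 0.016 for N/N against +/N and 0.48 for shLuc against +/+. The latter was 0.77 with a pseudocount of 0.1. Subunit genes with under 50% of 100-base words elsewhere, an alternative chosen after seeing the data like the split by column run, had medians of 0.28 for N/N against +/+ and 1.03 for shLuc against +/+. At 2-fold the counts were 3 for N/N, 1 for +/N, 0 for N/N against +/N and 3 for shTbx3, beside 3.28%, 1.91%, 0.625% and 3.80% of all genes. The +/N count of 4 was 9 with a pseudocount of 0.1 (11.3% of all genes) and 7 with the shift set to 0 (7.03%), and that of N/N against +/N was 3 with the shift set to 0 (1.84%). Shares of FPKM without small RNA genes were 6.88%, 7.96% and 8.46% in +/+, +/N and N/N. The median share of cells per subunit gene, 97.8%, was 100% at 0.1 FPKM and in the cells with at least the median number of genes. Against the pool, the median over cells gave -1.43. Sites were at 12.2% of subunit genes within 20 kb (14.9% of all genes) and, within 1 kb, at 0% with a score of 100 or more (1.22%).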

Other observations

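Many subunit genes carry small nucleolar RNAs, which guide the modification of ribosomal RNA, in their introns. Of the 74 placed subunit genes 29 held an annotated snoRNA on the same strand (39.2%), beside 1.96% of 11094 coding genes of the bulk table, and the 55 snoRNAs included several in each of Rpl4, Rpl7a and Rpl13a. The median log2 difference in N/N against +/+ was 0.25 for the hosts and 0.11 for the others, and in shTbx3 against shLuc -0.02 and 0.09.

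In the windows around the start (250 bases before it to 50 after) of the 55 matched subunit genes, the ETS letters CCGGAAG, searched on both strands, were in 21 (38.2%), beside 18.9% of other bulk genes and 9.12% of all genes. The SP1 letters GGGCGG were in 33, beside 68.1% of other bulk genes.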
